A study of Mus musculus with 5 samples.

Results

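Among the RAP1 peaks of mouse embryonic fibroblasts, 1123 of 30398 were read-rich and lay in the interior of an autosome. A peak was counted here when it lay on chromosomes 1 to 19 and held 50 or more positive reads. It also had to start at or above 8000000 bp, with its midpoint more than 2 Mb before the last listed peak end of its chromosome. The members were therefore chosen on the positive reads and on position, and no other value entered the choice. They are 4.0% (exact 95% interval 3.77 to 4.24) of the 28079 listed peaks that meet the position criteria, and the other 26956 interior peaks are used beside them. At the threshold, 117 interior peaks held exactly 50 reads and 153 held 49. The median length was 96 bp just inside and 87 bp just outside, and negative strand reads were present in 35.9% (27.2 to 45.3) and 21.6% (15.3 to 28.9). These 2 intervals overlap. Another listed peak lay within 10 kb of 43.6% (34.5 to 53.1) just inside and 44.4% (36.4 to 52.7) just outside.

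The series holds 5 chromatin immunoprecipitation sequencing libraries. Wild-type fibroblasts and Rap1-deleted fibroblasts gave 2 each with an antibody against RAP1, and 1 input had no antibody. The fibroblasts are embryonic, of mixed background, immortalised with the large T antigen of SV40, which inactivates p53 and the retinoblastoma protein, and were kept in puromycin; the wild-type and the Rap1-deleted cells share all of this. The design text speaks of independent fibroblasts for each genotype, but the deposited list gives 1 positive and 1 negative read set. The positive set is read here as wild-type and the negative set as Rap1-deleted. With pooled reads there is no spread between replicates, so all values are descriptions of these read sets, without tests. Total reads per library are unknown here, and intervals cover counting error only.

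RAP1 is a subunit of shelterin, the complex that covers and protects chromosome ends. It does not hold the telomeric TTAGGG repeat by itself in mammals but is brought there by TRF2, which binds the double-stranded repeat. TTAGGG repeats also occur within chromosome arms as interstitial telomeric sequences, which is why sites far from the chromosome ends are of interest for this protein. The repeat content of the members, and the genes at them, need the sequence and annotation of the mm9 assembly and were not analysed here, so no sequence is printed and no member is assigned to a gene.

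Members ranged widely in length, while their read numbers lay mostly near the minimum set by the rule. They held a median of 56 positive reads (quartiles 52 and 63, range 50 to 329), and only 14 of 1123 held 100 or more. Their length had a median of 90 bp (64 to 213, full range 29 to 940), against 55 bp (38 to 75) in interior peaks under the minimum. The median length of members was higher on 19 of 19 autosomes, from 73 to 130 bp against 53 to 57 bp. Long peaks of 120 bp or more made up 37.4% (34.6 to 40.3) of members and 9.46% (9.11 to 9.82) of the other interior peaks. Peaks of 29 to 31 bp made up 9.08% (7.47 to 10.9) and 17.9% (17.5 to 18.4). Peaks that are longer can gather more reads, so length was not independent of the choice of members.

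**Figure D1:**
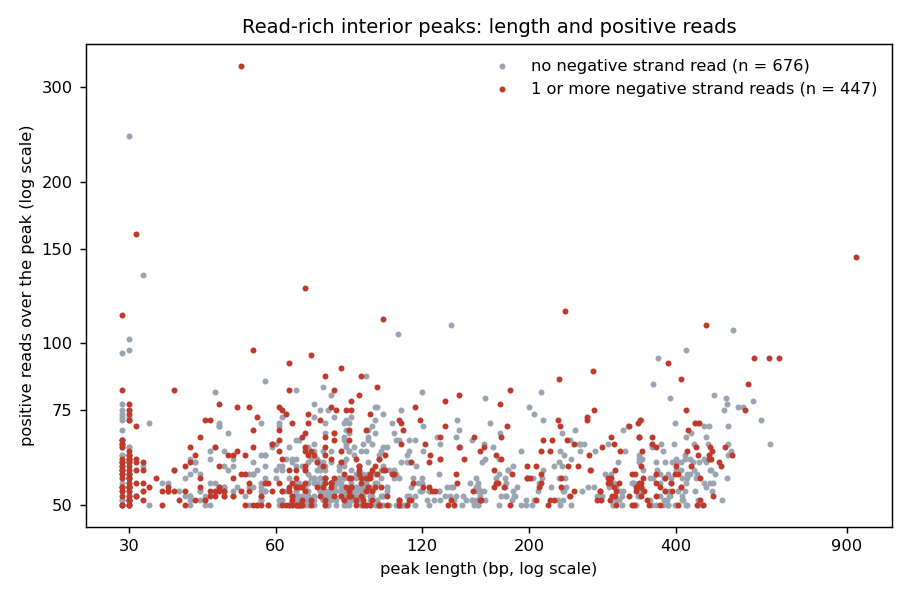
Each point is 1 of the 1123 members, with its length in bp (log axis) against its positive reads over the peak (log axis), coloured by whether the strand windows held a negative read. The points gather near 30 bp, between 60 and 119 bp and from 200 bp upwards, and most lie close to the minimum of 50 reads.

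Class by class, the longest members were lower than the short ones. The height of a peak is the highest number of positive reads in any window of it. In the 449 members of 61 to 119 bp the median height was 40 reads, and in the 102 members of 29 to 31 bp it was 42 reads. The 101 members of 400 bp or more had a median height of 26 reads, while their median read number was the highest of the length classes, at 61. Their reads were thus spread out, with a median of 0.133 reads per bp against 2.0 reads per bp in members of 29 to 31 bp. In the median member the highest window held 60.7% of the reads of the peak, while in the median interior peak under the minimum it held all of them. Height and read number were the same in 70 members, height reached 50 or more in 158, and it was under 30 in 304.

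In the deposited ranking, members under 120 bp had lower median ranks than longer ones, without a steady order by length. From the shortest class to the longest, the median rank was 1391.5, 926, 961, 6274, 5839 and 12431. The median false discovery rate, as deposited, was 0.000829 at 61 to 119 bp and 0.00831 at 400 bp or more. Of the 100 best ranks in the list 75 were members, and no other interior peak was among them. Of the 1000 best ranks 391 were members out of 891 interior peaks. At the other end, 104 members stood in the later 50% of the ranking. A deposited false discovery rate of 0.01 or less was found in 1019 members (90.7%, 88.9 to 92.4) and in 54.3% (53.8 to 54.9) of interior peaks under the minimum. Ranks and rates come from the same positive reads that chose the members. Interior peaks under the minimum cannot be tall, with heights up to 49 reads and a best rank of 192. Nothing is therefore read from these differences in rank and rate.

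Reads from the edges of a bound fragment fall on opposite strands, so the forward-strand mode is usually placed upstream of the reverse-strand mode. Among members the reverse mode lay downstream in 896 of 1123 (79.8%, 77.3 to 82.1), against 93.5% (93.2 to 93.8) of interior peaks under the minimum. The median spacing was 69 bp (22 to 97.5) in members and 51 bp (32 to 69) in the others. In the labels' protocols the gel fraction was 200 bp with a tolerance of 25 bp. The exceptions were nearly all long. Of the 299 members of 200 bp or more, 217 (72.6%, 67.1 to 77.5) had the reverse mode upstream, by a median of 81 bp. Of the 824 shorter members, only 4 did. Within length classes the order of the totals did not hold. The share with the reverse mode downstream was lower in members only at 29 to 31 bp, with 94.1% against 98.9%. It was 96.7% against 63.2% of other interior peaks at 120 to 199 bp and 40.4% against 11.8% at 200 to 399 bp. Among members under 200 bp the spacing of the modes was exactly the length of the peak in 732 (88.8%, 86.5 to 90.9). In the long members the spacing equalled the length in 82 (27.4%, 22.4 to 32.9). Whether the modes lie at the listed ends was not checked.

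The strands were balanced in the typical member. The forward strand took a median of 50% of the positive strand-window reads (42.0 to 58.2), with a full range from 13.3% to 82.5%. Fewer than 33.3% or more than 66.7% of reads lay on the forward strand in 161 members (14.3%, 12.3 to 16.5) and in 4.23% (3.99 to 4.48) of interior peaks under the minimum. No listed peak has fewer than 10 positive reads per strand, which keeps a peak of few reads close to balance, so these shares are not directly comparable. Within members the unbalanced share was 19.6% at 29 to 31 bp, 19.1% at 32 to 60 bp and 12.5% at 61 to 119 bp.

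Reads of the Rap1-deleted set were present at more of the members than at other interior peaks. The strand windows held 1 or more negative reads at 447 members (39.8%, 36.9 to 42.7), against 4762 interior peaks under the minimum (17.7%, 17.2 to 18.1). The share in members was the higher on 19 of 19 autosomes, from 25.0% to 52.1% against 12.3% to 24.4%. The share was higher in each successive class of read number. It was 14.8% (14.3 to 15.4) for interior peaks of 12 to 29 reads and 26.7% (25.0 to 28.5) for 40 to 49 reads. In members it was 37.3% (33.8 to 41.0) at 50 to 59 reads, 41.1% (35.6 to 46.7) at 60 to 74 and 55.6% (43.4 to 67.3) at 75 to 99. Of the 14 members with 100 or more reads, 8 had negative strand reads. Negative reads over the whole peak were listed at 0 of 16407 interior peaks of 12 to 29 reads and 0 of 8070 of 30 to 39. They were listed at 13 of 2479 of 40 to 49 reads and at 37 members. How far the listing of a peak depended on its negative reads is unknown here, so these shares describe listed peaks only.

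The difference was seen within classes of peak length, a split chosen after the data were seen. At 29 to 31 bp, 59.8% (49.6 to 69.4) of members had negative strand reads against 27.2% (26.0 to 28.5) of other interior peaks. At 61 to 119 bp the shares were 34.3% (29.9 to 38.9) and 12.1% (11.4 to 12.8). At 200 to 399 bp they were 44.4% (37.4 to 51.7) and 22.1% (20 to 24.4). The intervals overlapped only at 400 bp or more, with 33.7% (24.6 to 43.8) against 21.2% (8.98 to 38.9) of only 33 peaks. These shares, too, describe listed peaks only.

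**Figure D2:**
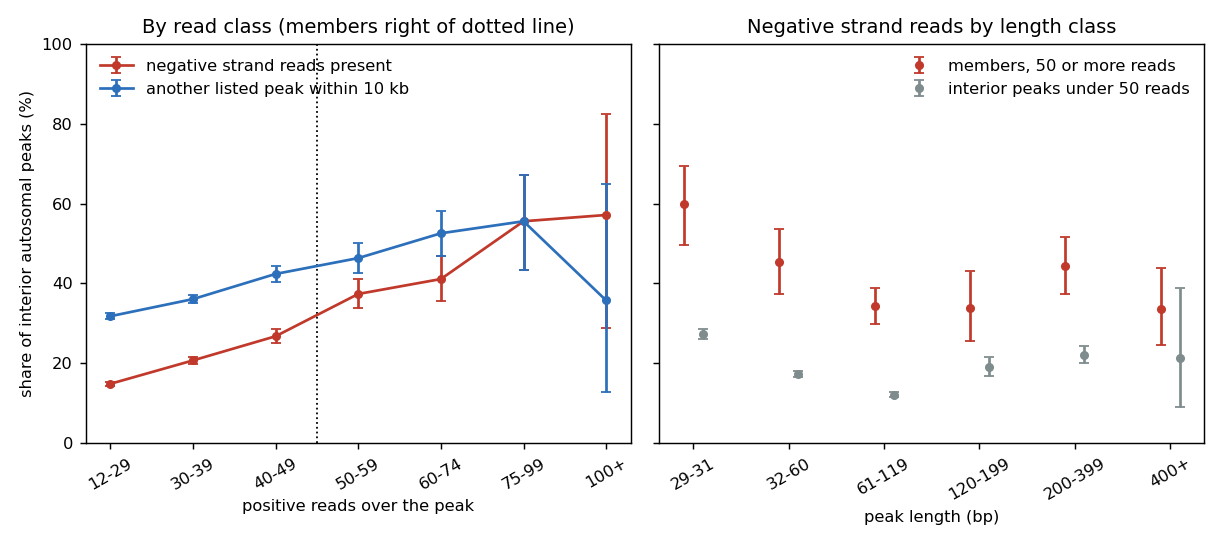
The left panel gives, by class of positive reads, the share of interior autosomal peaks with negative strand reads and with another listed peak within 10 kb, and the right panel gives the share with negative strand reads by peak length for members and for interior peaks under 50 reads. Bars are exact 95% intervals for counting error; the share with negative reads goes from 14.8% at 12 to 29 reads to 55.6% at 75 to 99 reads, and members lie above the other peaks in each length class.

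Where negative reads were present, their number was the same in the median, at 7 in members and 7 in other interior peaks. They lay on 1 strand only in 375 members and on both strands in 72. The window with most negative reads was within the peak in 119 of 266 forward entries (44.7%, 38.7 to 50.9) and 109 of 253 reverse entries (43.1%, 36.9 to 49.4). The whole-peak negative column, in contrast, was above 0 in only 37 members, and 412 members with 0 in it had negative strand reads. For that reason the strand windows are used for ratios.

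The ratio of positive to scaled negative reads has in its numerator the reads that chose the members, so it is a description, and no difference from other peaks is read from it. Summed over members, the strand windows held 65100 positive and 3810 negative reads. After scaling the negative reads by 3.32, the factor found in the deposited log2 folds, this is a ratio of 5.15 (4.98 to 5.32). Other interior peaks gave 5.90 (5.84 to 5.96), while the medians over single peaks with negative strand reads stand in the opposite order. The ratio of members was the lower on 12 autosomes and the higher on 7. By length, members of 61 to 119 bp had the highest ratio, 6.72 (6.33 to 7.13), against 9.35 (9.16 to 9.55) in other interior peaks of that length. At 29 to 31 bp both were low, with 3.14 (2.89 to 3.42) and 3.30 (3.24 to 3.37).

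Taken one peak at a time, the 447 members with negative strand reads had a median ratio of 2.51 (interquartile range 1.51 to 4.37), and 1.27 (0.788 to 2.33) was the median of the other interior peaks with such reads. The ratio was under 2 in 183 members and at or under 1 in 41, against 3313 and 1787 of 4762 others with such reads. Its interval lay wholly above 2 in 64 of the 447 members (14.3%), where the whole list has 2.23%. It lay wholly under 1 in 9 members (2.01%), against 8.5% in the whole list. Members have more positive reads by the rule, which narrows the interval and lifts the ratio, so nothing is read from these shares. The 64 lay on 16 chromosomes, had 1 to 9 negative strand reads and ratios from 5.0 to 38.2. In the 9, on 7 chromosomes, 26 to 46 negative strand reads gave ratios from 0.370 to 0.620, and in 7 of them the negative reads were on both strands.

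No negative read stood in any column for 674 members (60%, 57.1 to 62.9). The floor was set at 3 negative reads of the pooled set. Over it, the whole-peak positive reads of these members were at least 5.02-fold to at least 24.5-fold higher, with a median bound of 5.52. Bounds here and below use the whole-peak column, so they are not directly comparable with the strand-window ratios. Since the floor is a constant, a bound of about 5 restates the minimum of 50 reads. Only 6 of the 674 had a bound of 10 or more.

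The most read-rich member lay on chromosome 2 from 57482074 to 57482124 (mm9, as are all positions here). It had 130 forward and 199 reverse positive reads, and its 9 negative reads were all on the reverse strand, a ratio of 11.01 (5.73 to 24.3). All 329 reads fell within its highest window. The second, on chromosome 8 from 73957000 to 73957029, was the least balanced of the 10 highest, with 189 forward and 56 reverse reads and no negative read. The chromosome 4 peak from 31281392 to 31281422 had 60 forward and 100 reverse reads, with 8 negative reads on the forward strand alone (6.02, 2.98 to 14.2). On chromosome 2 from 28040118 to 28040149, 89 forward and 45 reverse reads stood against none. In both peaks with negative reads, these were found on the strand with more reads on chromosome 2 and to the strand with fewer on chromosome 4.

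Other members of the 10 highest were longer. The longest of all, on chromosome 1 from 162969432 to 162970371, spans 940 bp and holds 145 positive reads, but its highest window holds only 42. With 11 forward and 4 reverse negative reads its strand ratio was 2.75 (1.61 to 5.05), and it ranks 629. A peak of 462 bp on chromosome 11 from 58148068 to 58148529 has 108 reads, a height of 48 and a ratio of 3.16 (1.65 to 6.79). On chromosome 3 from 8246273 to 8246509, 115 reads over 237 bp were both wide and tall, with a height of 98 and 2 negative strand reads (14.8, 3.98 to 124). That peak starts close to the position minimum, and its nearest listed neighbour is 293.8 kb away.

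The 10 highest also include peaks at which the control differed widely. A 69 bp peak on chromosome 11 from 51269148 to 51269216 has 60 forward and 67 reverse reads against 1 negative read, a ratio of 38.2 (6.74 to 1522) that rests on that single read. On chromosome 15 from 78761011 to 78761110, 56 forward and 52 reverse reads stood against 2 (16.3, 4.39 to 136). The chromosome 11 peak from 86396062 to 86396090 has 113 reads over the peak, yet 8 forward and 12 reverse negative reads gave a ratio of 1.63 (1.003 to 2.77). Its whole-peak negative column reads 0.

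**Figure D3:**
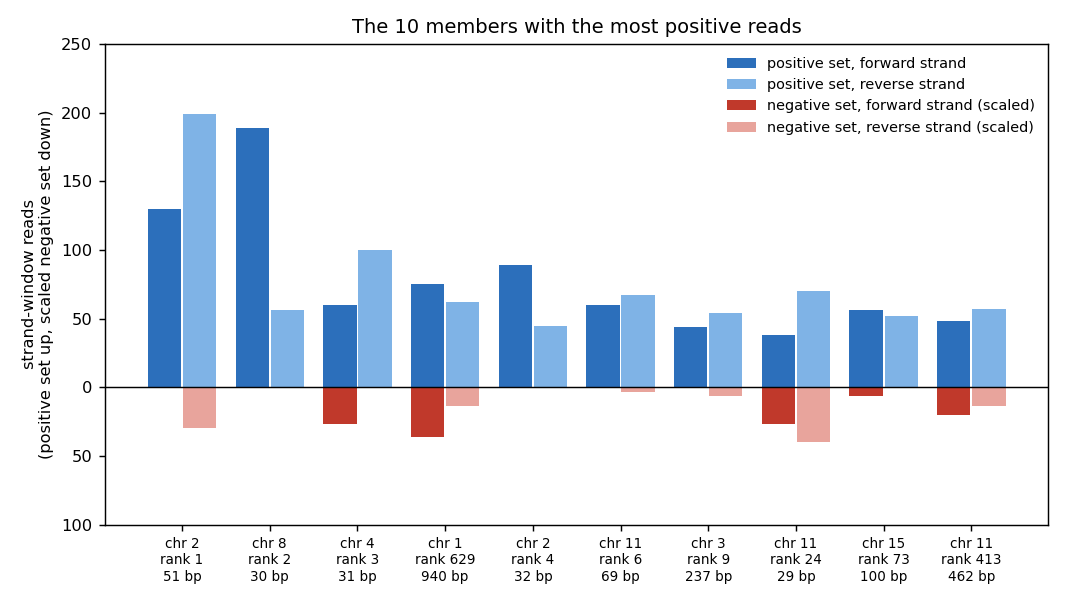
For each of the 10 members with the most positive reads, bars above the line give forward and reverse positive reads of the strand windows and bars below it give the negative reads multiplied by 3.32. The chromosome 2 peak of rank 1 reaches 199 reverse reads, the chromosome 8 peak has 189 forward against 56 reverse, and negative reads are visible at 8 of the 10.

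Of the 10 best-ranked members, 6 are among the 10 highest by reads. The other 4 have fewer reads. At rank 10, on chromosome 6 from 29662202 to 29662246, 81 reads over the peak met only 25 forward and 25 reverse reads in the strand windows, with no negative read. The peaks ranked 12 and 13 lie on chromosome 2, from 32343068 to 32343149 and from 29627305 to 29627382, with strand ratios of 4.37 (1.93 to 12.2) and 4.58 (1.88 to 14.5). The rank 7 peak on chromosome 9 from 95326334 to 95326363 is 30 bp long with 50 forward and 52 reverse reads, both modes at the same position and no negative read.

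Other members complete the 5 with the most reads and no negative read. On chromosome 8 from 108673853 to 108673990, 108 reads spread over 138 bp with a height of 32 were at least 10.8-fold higher than the control floor. A peak of 526 bp on chromosome 2 from 167459745 to 167460270 had 106 reads (at least 10.6-fold), with the reverse mode 167 bp upstream of the forward mode. The chromosome 10 peak from 79175384 to 79175490 had 104 reads (at least 10.4-fold), 66 forward and 38 reverse. Among members with negative strand reads, 4 of the 5 with the highest lower bound of the ratio are among the 10 with most reads, and the fifth is the rank 448 peak on chromosome 17 from 35121361 to 35121430, with 74 positive and 1 negative strand reads (22.3, 3.88 to 892).

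The 5 members with the most negative strand reads had more scaled negative than positive reads. On chromosome 15 from 74916542 to 74916752, 80 positive and 46 negative strand reads gave 0.524 (0.360 to 0.770). The chromosome 17 peak from 39984349 to 39984378 had 52 against 36 (0.435, 0.279 to 0.685), 30 of the 36 on the reverse strand. The lowest ratio was on chromosome 13 from 12487642 to 12487671, with 43 against 35 strand reads, 0.370 (0.231 to 0.595). There the whole-peak columns give 63 against 3 reads, a ratio of 6.32, so that the direction depends on the column. The same turn is seen on chromosome 19 from 10651741 to 10651802, where the whole-peak ratio is 15.1 from 1 negative read and the strand ratio 0.505 (0.325 to 0.796) from 34. On chromosome 6 from 31003435 to 31003614, 70 against 34 strand reads gave 0.620 (0.406 to 0.963). The peaks on chromosomes 15, 17 and 6 also turn with the column, since their whole-peak columns hold 57, 51 and 70 positive reads against 0 negative reads. The direction thus depends on the column in all 5.

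Each chromosome has at least 1 member well above the minimum. The highest read number per chromosome ran from 71 on chromosome 13 to 329 on chromosome 2. Besides those already named, the highest member of its chromosome had 96 reads on chromosome 5 from 107596643 to 107596671, 87 on chromosome 7 from 13513111 to 13513202, 83 on chromosome 12 from 25394032 to 25394106 and 73 on chromosome 14 from 21421768 to 21421839. These 4 had no negative read in any column. The highest of chromosome 13, from 111191808 to 111191872, had 13 negative reads on the forward strand, where it had only 21 of 69 positive reads (ratio 1.60, 0.876 to 3.15). On chromosome 17 the highest, from 23811267 to 23811846, had 94 reads over 580 bp and 33 negative strand reads, a ratio of 0.803 (0.533 to 1.24). Higher ratios were found for the highest of chromosome 6 from 120848311 to 120848386 (5.18, 2.13 to 16.4), chromosome 16 from 21204003 to 21204413 (3.05, 1.41 to 7.87), chromosome 18 from 61753994 to 61754263 (3.35, 1.63 to 8.0) and chromosome 19 from 38030073 to 38030126 (3.65, 1.78 to 8.70).

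Members were unevenly shared between the autosomes, largely as all interior peaks were. Per Mb of interior, they ran from 0.197 on chromosome 7 and 0.243 on chromosome 12 to 0.786 on chromosome 17 and 0.787 on chromosome 11, a range of 4.0-fold around a median of 0.501. As a share of the interior peaks of the same chromosome, the range narrowed to 1.84-fold, from 2.90% (1.93 to 4.16) on chromosome 7 to 5.33% (4.15 to 6.72) on chromosome 17. Chromosome 17 was the only autosome whose interval lay wholly above the overall share of 4.0%. The 1 wholly below was chromosome 3, with 3.17% (2.48 to 3.99), although it is among the richer in interior peaks at 14.8 per Mb. Read depth per chromosome is unknown, and the median reads of interior peaks ran only from 27 to 29 between chromosomes.

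**Figure D4:**
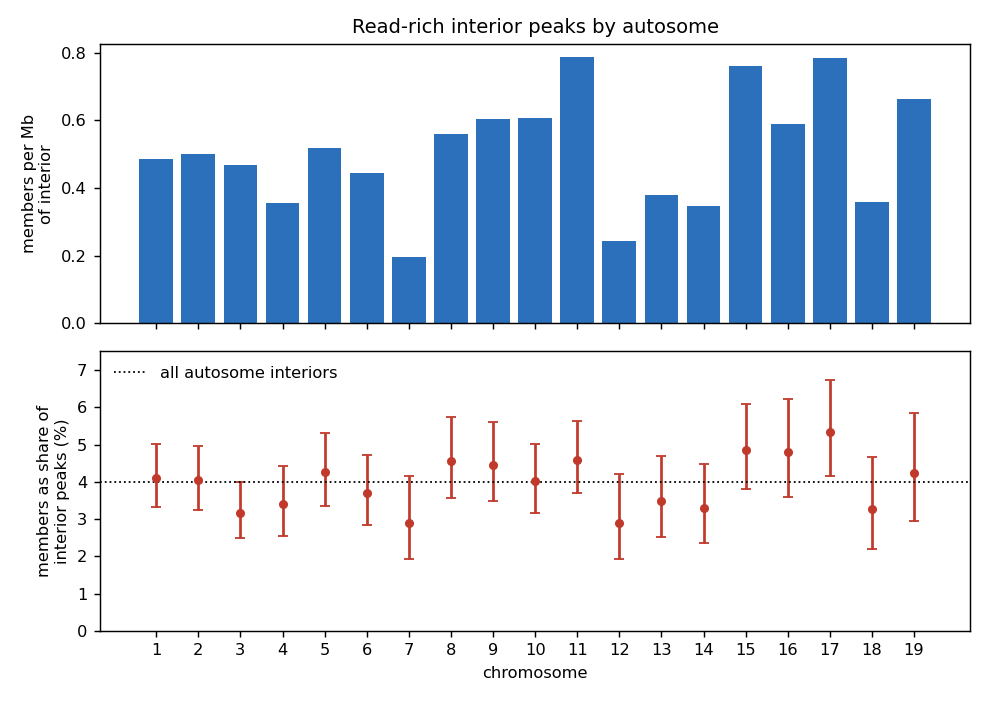
The upper bars give members per Mb of interior for each autosome, and the lower points give members as a percentage of the interior peaks of that autosome with exact 95% intervals for counting error; the dotted line is the share over all autosome interiors, 4.0%. The bars differ by 4.0-fold, the points by 1.84-fold, with chromosome 17 highest at 5.33%.

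The control also differed between chromosomes. The summed strand ratio of members ran from 3.14 (2.82 to 3.51) on chromosome 17 and 3.51 (3.15 to 3.92) on chromosome 5 to 8.68 (7.49 to 10.1) on chromosome 1 and 9.49 (7.14 to 12.9) on chromosome 12. Chromosome 17 thus had the largest share of members and the lowest ratio. Negative strand reads were present at 50.7% (38.2 to 63.2) of its members, against 25.3% (16.8 to 35.5) on chromosome 1. Chromosome 15 stood out by length, with a median of 130 bp, and had negative strand reads at 52.1% (39.9 to 64.1) of members. In other interior peaks the ratio also was lowest on chromosome 17, at 3.96.

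Along the interior, the share of peaks that are read-rich varied little with the distance from the distal end, and the intervals of the bins named here overlapped. It was 3.67% (2.51 to 5.17) from 2 to 5 Mb before the last listed peak end, 4.46% (3.41 to 5.73) from 5 to 10 Mb, 4.15% (3.39 to 5.01) from 10 to 20 Mb and 4.19% (3.81 to 4.61) from 40 to 80 Mb. The ratio of the 31 members from 2 to 5 Mb was 3.62 (3.06 to 4.32), below that of all the bins farther in, which ran from 4.89 to 5.4. On the centromeric side, the share was 2.87% (1.39 to 5.22) from 8 to 10 Mb and 3.83% (2.99 to 4.83) from 10 to 20 Mb. The ratio of members on that side was 4.58 (3.33 to 6.48) from 8 to 10 Mb and 4.045 (3.59 to 4.57) from 10 to 20 Mb. It was 4.5 (4.19 to 4.84) from 20 to 40 Mb and 5.46 (5.14 to 5.80) from 40 to 80 Mb. All but the last of these intervals overlapped that of the 31 distal members.

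Read-rich peaks outside the interior had read numbers close to those of members. Of the 1286 peaks in the list with 50 or more reads, 92 start before 8 Mb, 56 lie in the distal 2 Mb of autosomes and 15 lie on the sex chromosomes. The median read number was 59, 60.5 and 62, against 56 in members. Negative strand reads were present at 66.3% (55.7 to 75.8) of the 92, 46.4% (33.0 to 60.3) of the 56 and 66.7% (38.4 to 88.2) of the 15, against 39.8% (36.9 to 42.7) of members. Only the interval of the 92 lies wholly above that of the members. Without chromosome 11 the share in that set was 50% (35.5 to 64.5), which overlaps it. The strand ratio was 2.38 (2.20 to 2.57) in the 92, and 3.88 (3.40 to 4.45) without the 42 of them on chromosome 11. It was 4.62 (4.05 to 5.28) in the 56 distal peaks and 4.72 (3.85 to 5.86) in the 15, and both intervals hold the 5.15 of members.

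Over all lengths, members more often had a listed neighbour close by than other interior peaks. Another listed peak lay within 10 kb of 545 members (48.5%, 45.6 to 51.5), against 34.0% (33.5 to 34.6) of interior peaks under the minimum, and within 1 kb of 145 (12.9%, 11 to 15.0) against 5.83% (5.55 to 6.11). The 10 kb share was the higher for members on 18 of 19 autosomes, chromosome 19 being the exception with 35.3% against 40.5%. Within 100 kb of its midpoint the median member had 5 other listed peaks (interquartile range 3 to 7) and the median other peak 3 (2 to 6). No listed peak lay within 200 kb of 4 members (0.356%, 0.0971 to 0.91) and of 664 interior peaks under the minimum (2.46%, 2.28 to 2.655). In length classes the 10 kb share of members ran from 40.8% (32.9 to 49) at 32 to 60 bp to 55.1% (47.8 to 62.1) at 200 to 399 bp, against 32.4% (31.5 to 33.3) and 36.1% (33.6 to 38.6) in other interior peaks. At 400 bp or more the shares were alike in size, with 49.5% (39.4 to 59.6) of members and 48.5% (30.8 to 66.5) of the 33 others.

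Most of these neighbours were not themselves read-rich, but members are only 4.0% of all interior peaks. The gap to the nearest other member had a median of 296.5 kb. Another member lay within 10 kb of 95 (8.46%, 6.90 to 10.2), among the 545 with any listed peak that close. How often other interior peaks had a member within 10 kb was not computed. When gaps of up to 10 kb are joined, the members fall into 1069 groups, of which 578 are a single peak. Only 49 groups hold 2 or more members, and 4 hold 3 or more. Of the members, 63 are in a group of 5 or more peaks. Groups without a member were not counted, so whether these numbers are high or low for listed peaks is not known here.

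The group with the most members has 4 of them within 2.08 kb on chromosome 9, between 41400518 and 41402596, in a group of 11 peaks. They hold 63, 68, 54 and 52 positive reads in order of position. Their negative strand reads are 10, 5, 2 and 0 in the same order, giving ratios of 1.69 (0.852 to 3.71), 4.28 (1.75 to 13.6) and 8.13 (2.14 to 68.8) and, for the last, at least 5.22-fold. The 7 other peaks there have 22 to 49 reads, the highest of them 1 read short of the minimum. The 4 members together gave 4.13 (2.52 to 7.21).

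Another group, on chromosome 11, has 3 members between 86395271 and 86397461, the middle one being the 29 bp peak of 113 reads described above. Its neighbours have 59 and 67 reads with ratios of 2.76 (1.19 to 7.85) and 3.43 (1.39 to 11), and the 3 together gave 2.14 (1.46 to 3.22). On chromosome 5, 3 members between 125862915 and 125864475 hold 77, 57 and 75 reads. They differ in shape, with lengths of 174, 51 and 30 bp and heights of 22, 41 and 60. Their ratio together was 2.66 (1.72 to 4.29). In all 3 groups the joint ratio of the members was lower than that of the members as a whole, and the interval reached 5.15 only on chromosome 9.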

How the data were processed

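The deposited list holds 1 row per peak with no column per library. Coordinates are on mm9 per the submitters' processing notes; the aligner, the peak caller, the read filters and any use of the input are not given in the sources used here. Per the file headers, whole-peak and strand-window reads are raw counts, the highest window is a coverage signal in reads, the folds are log2 values and the false discovery rate is a q-value of the peak caller. Reading the positive set as wild-type and the negative as Rap1-deleted follows the design text; the headers say only positive and negative.

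Positions, lengths and reads were used as deposited. The factor between the read sets was solved from strand entries whose highest positive and negative windows share a position: 140 of 201 returned 3.32 within 0.001. Shares carry exact Clopper-Pearson intervals and ratios exact conditional binomial ones, all at 95%; PCR copies (18 cycles, per the labels' protocols) are not independent molecules. The interval code was checked on simulated reads. Gaps run from edge to edge over the whole list, and the last listed peak end stands in for the chromosome end. Regions were named by rule: the 10 best-ranked members, the 10 with most positive reads, the 5 with most negative strand reads, the 5 with the highest lower bound of the ratio among those with negative strand reads, the 5 with most reads and no negative read, the highest of each chromosome and the 3 groups with most members, ties going to more reads. The members, rule and lists were chosen with earlier results of these data known. Python 3.11.15, pandas 2.3.3 and SciPy 1.17.1 were used.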

Additional observations from a re-analysis of the deposited data

How the results depend on the processing

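No paired analysis was possible because the list pools the libraries and has no value per replicate; for the same reason no replicate could be left out. Repeat content and genes were not run, for want of mm9 sequence. With 40 or more reads there were 3602 members, a strand ratio of 5.33, negative strand reads at 30.8%, a peak within 10 kb at 44.3% and a median length of 82 bp. With 75 or more these were 86 members, 55.8% and 52.3%, with a spacing of 59 bp. Choosing by a highest window of 50 reads, an alternative added after the data were seen, left 158 peaks, with 44.9% and 39.9%, a length of 67.5 bp and a spacing of 64 bp. Without members of 31 bp or less, the ratio was 5.52, the length 96 bp and the spacing 74 bp. The ratio was 5.33 at 20 Mb from the start and 10 Mb from the end, and 5.33 with 1 peak per group. It was 219 (179 to 272) from the whole-peak columns and 2.51 as the median over members with negative strand reads. Another peak lay within 1 kb of 12.9% and within 100 kb of 97.4%. The 4.0-fold range over chromosomes was 1.84-fold as a share of interior peaks. Leaving out each chromosome gave ratios from 4.965 (without chromosome 1) to 5.36 (without chromosome 17), negative-read shares from 39% to 41.1%, 10 kb shares from 47.7% to 49.2%, lengths from 89 to 91 bp, spacings from 69 to 70 bp, 1032 to 1096 members and a chromosome range from 3.24 to 4.0. The other 22 values of the alternatives stayed within the interval of the reported value or, for counts, within 1.5 times. Depth per library is unknown, and the ratio of a single member rests on a median of 7 negative strand reads where any are present.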
